A study of Homo sapiens with 2 samples.

Results

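Sites that the lists of Saos-2 and U2OS both held as wide DNase I hotspots are described here. They were chosen by the deposited intervals alone: a Saos-2 hotspot on chromosomes 1 to 22 of at least 500 bp that overlapped, by at least 1 bp, a U2OS hotspot of at least 500 bp. Chains of 8 or more hotspots with neighbours at most 2 kb apart were left out beforehand, which removed 341 Saos-2 and 10 U2OS hotspots. The rule found 2228 of 51556 Saos-2 hotspots, and these met 2222 of 63388 U2OS hotspots in 2230 pairs. They were 4.48% of the 49779 autosomal Saos-2 hotspots outside chains and 47.9% of the 4650 wide ones. Both shares follow from the rule and were not read as a result. Width, overlap and the authors' significance took part in the choice or are tied to it, so all values of them below are descriptions.

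DNase I cuts DNA that is not wrapped in nucleosomes, and a dense run of cuts marks a regulatory element such as a promoter or an enhancer. A hotspot is the interval over which a caller finds more cuts than in the surroundings, so its width reflects both the length of the open stretch and the amount of signal. Promoters of widely expressed genes often lie in CpG islands, are open in most cell types, and carry sites for factors such as SP1, NF-Y, NRF1 and ETS proteins. Elements that differ between cell types are more often enhancers, away from gene starts.

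Both lines are established human lines of osteosarcoma, a tumour of bone. Each line was represented by 1 untreated DNase-seq library, made from nuclei digested for 3 min at 37 °C and amplified by 8 to 10 PCR cycles. With 1 library per line there is no replicate error and no test, and a difference between the lists compares these 2 libraries. Shares are given with 95% Wilson intervals, which cover counting error only and treat neighbouring sites as independent, which they are not. The depth of either library is unknown, and more reads give more, wider and more significant hotspots. Of 15 osteoblast and mesenchymal genes, 9 had a hotspot within 1 kb of the start in Saos-2 and 8 in U2OS, against 9343 and 10384 of all 19126 protein-coding genes. The osteoblast and mesenchymal genes with one in both lines included RUNX2, SPARC and VIM, while SP7, COL1A2, CDH11, THY1 and TWIST1 had none in either. Of 8 epithelial genes 0 had a hotspot in Saos-2 and 2 in U2OS, and of 8 blood genes 2 had one in each line.

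The promoters below lie wholly inside hotspots that were wide in both lines, and each is shown as an example of a motif searched for in the promoter windows. Each stretch covers 150 bases before and 20 bases from the gene start on, 5′ to 3′ on the strand of the gene, from RefSeq on GRCh38.p14, with the motif letters in capitals on whichever strand they match. The motifs were taken in turn, and for each the promoter with the highest lower significance of the pair was chosen among genes not yet shown. A stretch can hold further motifs that are not capitalised: LINS1 also holds the NRF1 core, on the opposite strand. A match is a description of the letters and not a bound site. The first 2 belong to the same hotspot on chromosome 15, from 100601898 to 100602677 in Saos-2 and from 100602053 to 100602691 in U2OS. There LINS1 and ASB7, a substrate adaptor of a ubiquitin ligase, start on opposite strands. LINS1 carries the GC box GGGCGG of SP and KLF factors, and ASB7 the CCAAT box of NF-Y.
LINS1: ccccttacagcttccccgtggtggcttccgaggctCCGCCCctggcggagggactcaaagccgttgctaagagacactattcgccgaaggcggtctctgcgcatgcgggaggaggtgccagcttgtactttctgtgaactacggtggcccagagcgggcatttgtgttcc
ASB7: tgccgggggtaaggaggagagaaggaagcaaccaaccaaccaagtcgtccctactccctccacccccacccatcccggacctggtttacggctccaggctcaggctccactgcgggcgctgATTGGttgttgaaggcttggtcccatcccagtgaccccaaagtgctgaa
Both lines gave this hotspot the highest significance the files hold, 100. The LINS1 match begins at base -115 and the ASB7 match at base -29, counted with the start as base 0.

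The next promoters carry an ETS site (CCGGAA), the NRF1 core (GCATGCGC), the cAMP response element (TGACGTCA) and the E-box of MYC and USF (CACGTG). VMP1 encodes a membrane protein needed for autophagy and lies on chromosome 17 with its start in a hotspot at 59707281-59708014 in Saos-2 and 59707272-59707807 in U2OS. HELQ is a DNA helicase gene on chromosome 4 with hotspots at 83455525-83456210 and 83455685-83456207. PARP2, a DNA damage sensor, lies on chromosome 14 with hotspots at 20342651-20343711 and 20342965-20343808. NEU1, the lysosomal sialidase, lies on chromosome 6 with hotspots at 31862714-31863261 and 31862606-31863299.
VMP1: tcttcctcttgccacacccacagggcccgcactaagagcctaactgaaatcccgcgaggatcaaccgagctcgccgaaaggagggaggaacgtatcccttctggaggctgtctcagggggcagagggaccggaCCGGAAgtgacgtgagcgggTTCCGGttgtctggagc
HELQ: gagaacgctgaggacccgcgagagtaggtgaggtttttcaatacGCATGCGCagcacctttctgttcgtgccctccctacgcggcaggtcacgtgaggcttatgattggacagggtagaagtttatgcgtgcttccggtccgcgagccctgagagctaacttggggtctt
PARP2: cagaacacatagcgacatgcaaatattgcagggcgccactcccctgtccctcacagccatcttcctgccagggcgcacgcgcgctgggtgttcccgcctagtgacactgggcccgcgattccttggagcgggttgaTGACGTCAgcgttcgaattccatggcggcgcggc
NEU1: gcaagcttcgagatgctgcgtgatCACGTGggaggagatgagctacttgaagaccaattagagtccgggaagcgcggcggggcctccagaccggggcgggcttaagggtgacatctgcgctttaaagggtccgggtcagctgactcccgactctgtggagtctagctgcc
VMP1 holds the ETS letters on both strands, with matches that begin at bases -17 and 3. The PARP2 element begins at base -14, and the NEU1 E-box lies farther out, at base -126.

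The last promoters carry the YY1 core (AAGATGG) and the element TCTCGCGA. GOLGB1 encodes giantin, a tether of Golgi membranes, on chromosome 3, with hotspots at 121749369-121750157 in Saos-2 and 121749442-121750146 in U2OS. RC3H2 encodes an RNA-binding protein that promotes mRNA decay, on chromosome 9, with hotspots at 122905187-122905708 and 122905200-122905739.
GOLGB1: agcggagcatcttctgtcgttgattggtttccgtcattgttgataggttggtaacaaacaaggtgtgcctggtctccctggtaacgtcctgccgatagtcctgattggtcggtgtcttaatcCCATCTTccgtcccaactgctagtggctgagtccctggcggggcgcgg
RC3H2: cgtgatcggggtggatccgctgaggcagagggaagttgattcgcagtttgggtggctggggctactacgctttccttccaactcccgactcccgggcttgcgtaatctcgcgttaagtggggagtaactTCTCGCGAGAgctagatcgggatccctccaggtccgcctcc
GOLGB1 has its YY1 letters at base -28. In RC3H2 the 2 TCTCGCGA matches begin at bases -21 and -19 and overlap each other.

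The paired hotspots nearly coincided in position. The median Saos-2 hotspot of a pair was 637 bp wide, with 90% between 511 and 1004 bp, and the median U2OS hotspot was 650.5 bp wide, with 90% between 515 and 1047 bp. They overlapped by a median of 582 bp, and their midpoints lay a median of 29.25 bp apart. In 2128 of 2230 pairs (95.4%) the overlap took up at least 90% of the narrower hotspot, although the rule asked for 1 bp. In 7 pairs it took up less than 50%. The 2 widths were within 1.25-fold of each other in 1705 pairs (76.5%) and more than 2-fold apart in 31. The hotspots covered 1.52 Mb in Saos-2, which is 10.7% of all bases in that list.

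Significance, the authors' −log10 value per hotspot, was 16.4 at the median for Saos-2 against 21.2 for U2OS. Saos-2 values ran from 3.51 to 100 and U2OS values from 2.90 to 100, so several wide hotspots were weak. U2OS was the more significant in 1473 pairs (66.1%) and the wider in 1266 (56.8%). Across the 2230 pairs the Spearman correlation between the lines was 0.47 for width and 0.48 for significance. These pairs share 2 libraries, and the width correlation is limited by the minimum of 500 bp. Across these pairs, all above the minimum width, width and significance of the same hotspot had a Spearman correlation of 0.26 in Saos-2 and 0.28 in U2OS. The threshold lies within a continuous range of widths. Taking each Saos-2 hotspot with its widest U2OS partner, the narrower of the pair was 450 to 499 bp wide in 988 cases and 500 to 549 bp wide in 700. Just inside, 16 pairs had a narrower hotspot of exactly 500 bp, such as chromosome 1 25247389-25247888 in Saos-2, which was 536 bp wide in U2OS. Other such sites were chromosome 1 53326016-53326518 and chromosome 10 14837902-14838405, of 503 and 504 bp, each 500 bp wide in U2OS. Just outside, 18 pairs had one of 499 bp, such as chromosome 1 27914463-27915008 in Saos-2, which was 546 bp wide and 499 bp wide in U2OS. Others were chromosome 1 146938195-146938704, with 510 and 499 bp, and chromosome 1 202589151-202589649, with 499 and 699 bp.

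**Figure D1:**
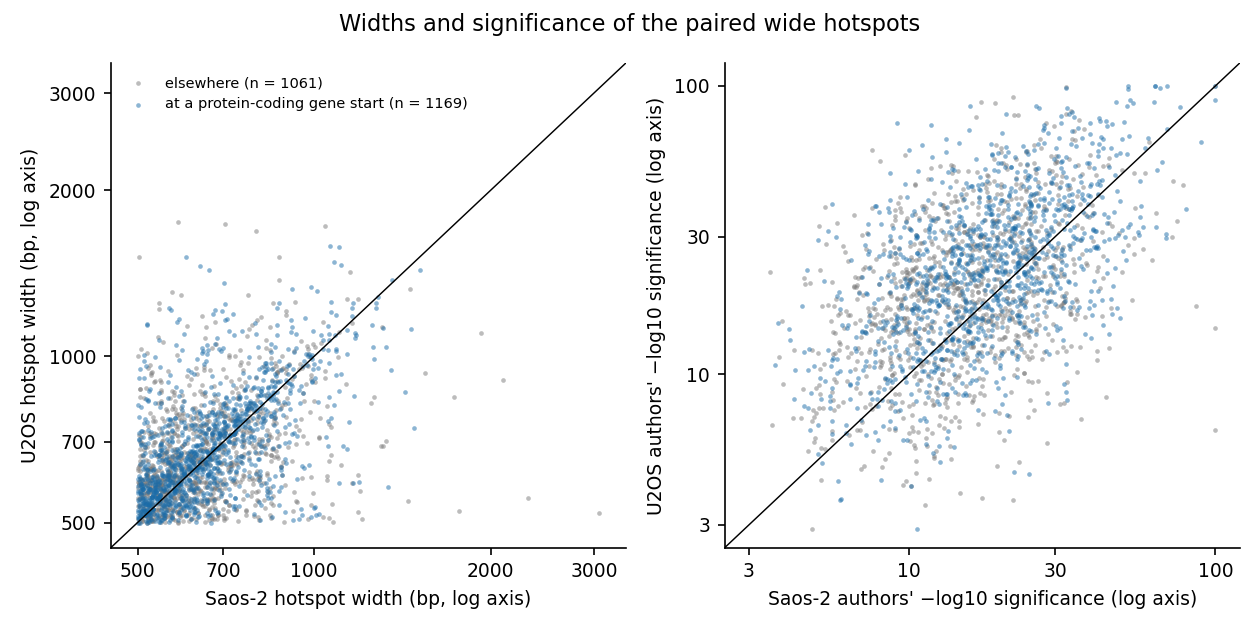
Width (left, bp) and the authors' −log10 significance (right) of each of the 2230 pairs in Saos-2 (horizontal) and U2OS (vertical), on log axes with the line of equality. Pairs at a protein-coding gene start are blue and the others grey; 66.1% of pairs lie above the line in significance, and the pairs far below the line in width are mostly grey.

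The pairs with the highest significance in both lines were nearly all promoters. Only 2 pairs reached 100 in both lines: the LINS1 and ASB7 promoter, and a site on chromosome 3 at 93470262-93470901, 640 bp wide for Saos-2 against 638 bp for U2OS, which overlapped no gene and lay 402150 bp from the nearest protein-coding gene, PROS1. Whether the reads at the chromosome 3 site are unique to it was not tested. Next came the start shared by PTRH2 and VMP1, with 100 for Saos-2 against 89.1 for U2OS. BCAS3 followed with 76.5 and 84.6, and the start shared by SKA2, a kinetochore gene, and PRR11 with 69.5 and 71.0. TMX1, a thioredoxin-related protein of the endoplasmic reticulum, had 69.3 and 100, and MXD1, a partner of MAX, had 66.1 and 98.2. GOLPH3L and HORMAD1 had 89.999 and 63.8, FAM185A had 63.6 and 100, and GOLGB1 had 63.6 and 100. A lower significance of at least 50 was held by 24 pairs in all.

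The widest overlaps were mostly at promoters too, but with much lower significance in some. FBXL19 on chromosome 16, whose protein binds unmethylated CpG, had the widest, with a Saos-2 hotspot of 1518 bp, a U2OS hotspot of 1433 bp and a significance of 32.5 and 23.9. RBM15, an RNA-binding subunit of the m6A writer, had 1357 and 1375 bp. WDR89 had 1284 and 1282 bp, ZNF687 had 1275 and 1248 bp, and the start shared by NDUFA11, a subunit of complex I, and VMAC had 1274 and 1226 bp. FBRS had 1159 and 1226 bp. Of the 10 widest, 3 were not at a start. A site on chromosome 1 at 26620226-26621681, of 1456 and 1326 bp, overlapped no gene and had a significance of only 9.91 and 11.2. The others lay inside zinc finger genes of chromosome 19, nearer the gene end opposite the listed start: ZNF404 had 1186 and 1268 bp, 130 bp from that end, and ZNF283 had 1151 and 1423 bp, 3587 bp from it.

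The most unequal widths were found mostly away from protein-coding gene starts. The 5 pairs with the widest Saos-2 hotspot relative to U2OS overlapped no protein-coding gene start. The first lay on chromosome 4 at 49708989-49712048, outside genes, where Saos-2 had 3060 bp with a significance of 100 while U2OS had 521 bp with 6.39. Whether the reads at that site are unique to it was not tested. The others lay in HHAT (2318 and 553 bp), at RNU1-1 (1765 and 524 bp), at the pseudogene AFG3L1P (1443 and 547 bp) and in TENM2, a teneurin gene (1209 and 507 bp). In the opposite direction, U2OS was wider in ZNF699 (502 bp against 1511 bp), in the neurokinin receptor gene TACR1 (587 and 1749 bp), at CHRAC1 (606 and 1513 bp), 37049 bp from PAWR (705 and 1740 bp) and in KLF10 (544 and 1247 bp). Of these 5, only CHRAC1 counted as a gene start, 290 bp away, and its start is not in the table of listed starts, so both ends of the gene stood in for it.

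Just over 50% of the wide shared hotspots lay at gene starts, where both gene ends stood in for a start that was not listed. Within 1 kb of the start of a protein-coding gene lay 1169 of 2228 (52.5%, interval 50.4 to 54.5%), against 31.3% (29.1 to 33.6%) of the 1670 wide Saos-2 hotspots whose U2OS partner was under 500 bp. Of the 752 wide Saos-2 hotspots with no U2OS overlap, 9.04% (7.20 to 11.3%) lay at a start. Of the 25310 shared hotspots that were themselves narrower in Saos-2, 27.2% (26.7 to 27.8%) did, and of all 49779 hotspots 21.4%. The same sites counted as U2OS hotspots gave 52.3%. A wide hotspot reaches a start more easily than a narrow one. Measured from the midpoint, the shares were 51.7, 30.1, 8.24 and 26.8% in the same order, close to those measured from the edges. With listed starts only, the shares within 1 kb of the hotspot were 46.5% (44.4 to 48.5%), 27.1, 7.31 and 23.3% in that order. A listed start lay inside 42.6% of the wide shared hotspots, 23.7% of those with a narrower partner and 5.05% of those of Saos-2 alone.

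**Figure D2:**
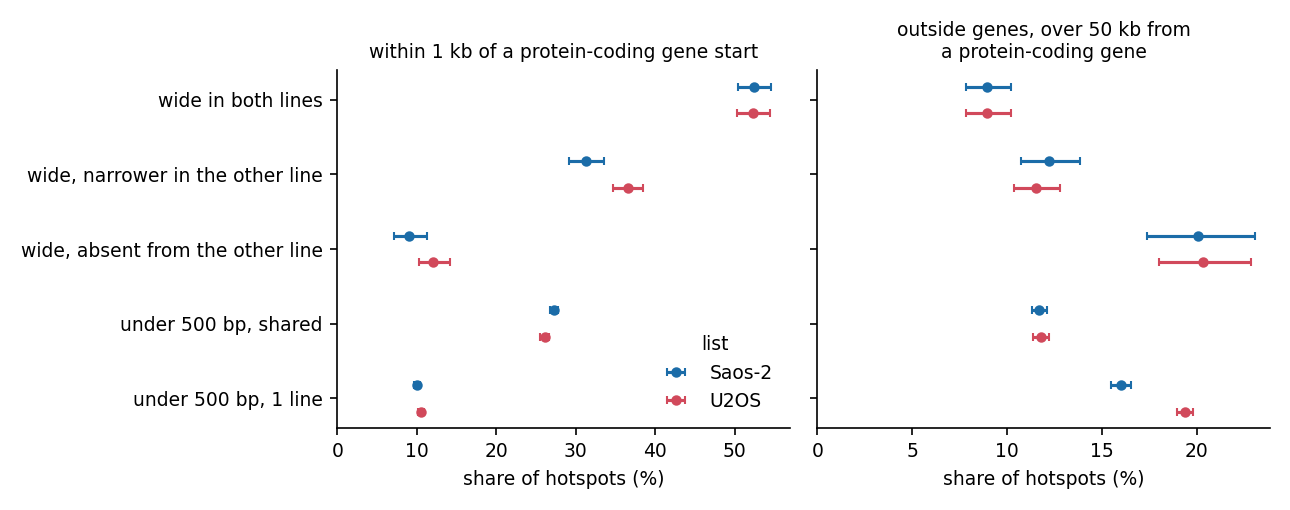
Share of hotspots (%, with 95% Wilson intervals) within 1 kb of a protein-coding gene start (left) and outside genes and over 50 kb from any protein-coding gene (right), for 5 classes of hotspot in the Saos-2 (blue) and U2OS (red) lists. The class that is wide in both lines has the highest share at starts, 52.5 and 52.3%, and a share of 8.93 and 8.96% far from genes.

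The share at a start rose steadily with the width of the narrower hotspot of a pair and showed no step at 500 bp. Each Saos-2 hotspot that overlapped a U2OS hotspot was counted once, with its widest partner. The share was 20.3% (19.5 to 21.04%) under 200 bp, 26.5% at 200 to 299 bp, 35.1% at 300 to 399 bp and 44.5% (42.6 to 46.5%) at 400 to 499 bp. Above the threshold it was 47.6% (44.7 to 50.4%) at 500 to 599 bp, 55.9% at 600 to 799 bp and 65.2% (58.9 to 71.1%) from 800 bp on. Within them the share also rose with the lower significance of the pair, from 41.8% (37.7 to 45.9%) in the 558 pairs of lowest significance to 63.8% (59.7 to 67.7%) in the 558 of highest.

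Of the other wide shared hotspots, 462 (20.7%) lay inside a protein-coding gene away from its start, 69 (3.10%) at a lncRNA gene, 144 (6.46%) inside another gene and 384 (17.2%) outside genes. Over all 49779 Saos-2 hotspots, 38.2% lay inside a protein-coding gene away from its start and 2.61% at a lncRNA gene. Outside protein-coding genes and away from their starts lay 26.8% of the wide shared hotspots, against 40.5% of all. RefSeq gene spans were used without exons, so exonic and intronic sites were not told apart. Hotspots inside protein-coding genes lay a median of 25.8 kb from the nearest end of a gene, and had median widths of 619 bp (Saos-2) and 634 bp (U2OS), close to the 645 and 662 bp at starts. Their median significance was 14.7 and 19.9, against 17.8 and 22.9 at starts. Widths within 1.25-fold of each other were found in 80.4% of hotspots at starts, 73.8% inside protein-coding genes and 61.8% inside other genes. The genes with the most such sites, 3 each, were GRK5, KCNH1, NFATC2, NRXN3, SRGAP1 and TENM2, which span from 176 kb (NFATC2) to 1698 kb (NRXN3). GRK5 is a kinase of G-protein coupled receptors, KCNH1 a potassium channel and NFATC2 a calcium-dependent transcription factor.

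Sites far from genes were less frequent than among other hotspots. Outside every gene and more than 50 kb from any protein-coding gene lay 199 wide shared hotspots (8.93%, 7.82 to 10.2%), against 12.2% (10.7 to 13.9%) of those with a narrower partner and 20.1% (17.4 to 23.1%) of those of Saos-2 alone. The share was 11.7% (11.3 to 12.1%) among narrow shared hotspots and 13.4% among all. The 5 farthest included the chromosome 3 site with 100 in both lines and a pair of neighbours on chromosome 5, at 49599349-49601079 and 49601082-49603184, nearly adjoining in Saos-2. These neighbours were 1731 and 2103 bp wide for Saos-2 against 844 and 905 bp for U2OS, with Saos-2 significances of 22.9 and 100 against 4.98 and 14.4. Whether the reads at the chromosome 3 and chromosome 5 sites are unique to them was not tested. The 2 remaining sites had similar values in both lines. One lay on chromosome 6 at 9481929-9482610, 914067 bp from TFAP2A, with 682 and 629 bp and a significance of 29.1 and 31.9. The other lay on chromosome 13 at 72291245-72291879, 416488 bp from MZT1, with 635 and 564 bp and a significance of 15.4 and 15.3.

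Many of the promoters served a gene on each strand. In 939 pairs the overlap held a listed protein-coding start, and in 180 of these (19.2%, 16.8 to 21.8%) it held starts on both strands. Those 180 overlaps were a median of 632.5 bp long, against 587 bp for the 759 with starts on 1 strand. A wide interval takes in more starts, so the arrangement was also measured at a fixed distance. The measure was a start of another gene on the opposite strand within 1 kb upstream. The fixed distance does not remove the effect of width in full. Starts inside hotspots were counted, and a wide hotspot over a divergent pair can supply both starts. Such a divergent neighbour was listed for 31.98% (29.5 to 34.5%) of the 1326 starts in pairs with both hotspots at least 500 bp wide. It was listed for 21.1% (19.96 to 22.2%) of the 4896 starts in narrower pairs, 11.6% of the starts in a hotspot of 1 line, 3.66% of those in none, and 10.5% of all 21041 starts. By width it rose from 15.7% (13.3 to 18.5%) under 200 bp to 27.6% (24.1 to 31.4%) at 500 to 599 bp and 36.4% (32.5 to 40.6%) at 600 to 799 bp, and was 32.4% (26.4 to 39.01%) from 800 bp on.

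Overlaps with starts of 3 genes numbered 5. One on chromosome 2 at 197499837-197500474 in Saos-2 held the divergent mitochondrial chaperonin genes HSPD1 and HSPE1 and the read-through gene HSPE1-MOB4, with hotspots of 638 and 734 bp. The others held AK6, TAF9 and RAD17; FPGT, FPGT-TNNI3K and LRRIQ3; NUMA1, LRRC51 and LRTOMT; and TRIM23, TRAPPC13 and SHLD3. Read-through genes and genes such as LRRC51 and LRTOMT share a start, so these are fewer separate promoters than gene names.

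The hotspots extended mainly upstream of the start. In 642 pairs the overlap held starts of 1 gene at 1 position. There the Saos-2 hotspot reached a median of 468 bp upstream (90% between 200 and 785 bp) and 127 bp downstream (34.05 to 468 bp). The U2OS hotspot reached 478 and 132.5 bp. The upstream side was the longer in 533 Saos-2 hotspots (83.0%) and 536 U2OS hotspots (83.5%). In shared Saos-2 hotspots under 500 bp the medians were 216 bp upstream and 84 bp downstream, with the upstream side longer in 90.6% of 3445. Against these narrower hotspots, the difference in median reach was larger on the upstream side. Wide Saos-2 hotspots with a narrower partner also reached farther upstream, with medians of 400.5 and 155.5 bp and the upstream side longer in 70.3% of 320. Wide U2OS hotspots with a narrower partner had 422.5 and 138.5 bp, and 79.7% of 562. Greater width is fixed by the rule, while the side on which it lies is not.

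**Figure D3:**
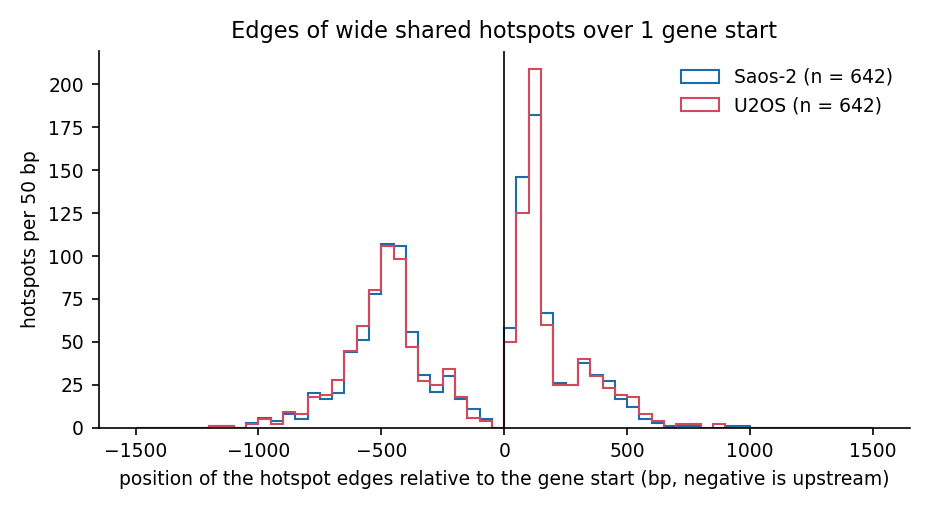
Upstream and downstream edges of the 642 wide shared hotspots over a single gene start, as the number of hotspots per 50 bp of distance from the start (negative is upstream), in Saos-2 (blue) and U2OS (red). Upstream edges spread around a median of 468 to 478 bp, and most downstream edges lie within 200 bp of the start, around medians of 127 and 132.5 bp.

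Sequence was compared over promoter windows of RefSeq, from 250 bases before to 50 bases after a listed protein-coding start. Wholly inside the overlap of wide shared hotspots lay 1001 windows of 900 genes. They were set beside 6165 other windows that met hotspots of both lines, 2580 that met a hotspot of 1 line and 10874 that met none, among 21041 in all. Nearly all windows in the wide shared hotspots were rich in CpG. The observed number of CpG was at least 0.6 of that given by the base composition in 95.1% (93.6 to 96.3%), against 91.0% of the other windows open in both lines, 77.6% of those open in 1 line and 38.6% of those open in neither. Median GC content was 63.3%, slightly below the 65.3% of other windows open in both lines and the 67.0% of those open in 1 line, and above the 57.7% of those without a hotspot.

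Of the 16 motifs searched, CCAAT differed most in percentage points between these windows and the others open in both lines. At least 1 match to CCAAT, on either strand, was found in 53.8% (50.7 to 56.9%) of their windows, against 41.7% (40.5 to 43.0%) of the other windows open in both lines, 28.4% of those open in 1 line, 29.6% of those without a hotspot and 34.4% of all windows. Counts of 2 or more matches were found in 28.97% (26.2 to 31.9%), 16.7% (15.8 to 17.7%) of other windows open in both lines and 7.01% of windows without a hotspot. Matches were most common 51 to 100 bases before the start, where 26.2% of the windows in wide shared hotspots held one, against 20.3 and 10.6%. Farther out, at 201 to 250 bases before the start, the shares were 13.7, 7.77 and 5.64%. A window wholly inside the overlap requires an open stretch of 250 bases upstream. The 421 windows only partly inside held CCAAT in 39.7% (35.1 to 44.4%), and with both kinds counted the share was 49.6%.

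CCAAT was also compared within bands of GC content. In windows under 60% GC, 62.5% (57.1 to 67.6%) of those wholly inside wide shared hotspots held CCAAT, against 49.5% (47.0 to 52.0%) of other windows open in both lines. At 60 to 70% GC the shares were 54.0% (49.6 to 58.3%) and 41.7% (39.9 to 43.6%). From 70% GC on, 38.3% (31.5 to 45.5%) and 35.04% (32.9 to 37.3%) held it, with overlapping intervals. In windows only partly inside, the shares in these bands were 41.8% (33.4 to 50.7%), 42.1% (35.3 to 49.1%) and 32.7% (24.4 to 42.2%). None of these exceeded the other windows open in both lines beyond the counting intervals. Divergent and other promoters in wide shared hotspots had similar shares, 51.3% (46.1 to 56.5%) and 55.2% (51.4 to 59.0%).

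Without regard to GC content, other promoter motifs differed less, or not beyond the counting intervals. The GC box GGGCGG was found in 76.6% (73.9 to 79.1%) of the windows in wide shared hotspots and 73.4% (72.2 to 74.5%) of other windows open in both lines. Within GC bands it differed more. Under 60% GC the shares were 55.9% (50.5 to 61.3%) and 46.1% (43.7 to 48.6%). At 60 to 70% GC they were 84.1% (80.7 to 87.1%) and 75.4% (73.8 to 77.0%), and from 70% on 92.3 and 93.9%. Windows only partly inside had 40.2, 77.4 and 99.0% in these bands. The sequence TGACG, which also forms the first letters of TGACGTCA, was found in 44.1% (41.009 to 47.1%) and 39.5% (38.3 to 40.7%). For the ETS site CCGGAA the shares were 37.0 and 36.7%, for the NRF1 core GCATGCGC 7.19 and 7.49%, for CACGTG 11.6 and 10.7% and for TCTCGCGA 4.30 and 3.29%. For the YY1 core AAGATGG they were 8.59 and 9.36%, with 3.98% in windows without a hotspot and 5.96% in all, and for TGACGTCA 4.196 and 4.10%, with 0.956 and 2.30%. All of these were rarer in windows without a hotspot, at 41.6% for GGGCGG, 18.8% for TGACG, 10.5% for CCGGAA, 1.002% for GCATGCGC, 6.05% for CACGTG and 0.184% for TCTCGCGA. The TATA box TATAAA went the other way, with 3.496% (2.52 to 4.82%) in wide shared hotspots, 4.23% in other windows open in both lines and 13.96% in windows without a hotspot. The AP-1 letters TGANTCA were found in 3.996, 4.72 and 7.01%, and the RUNX letters TGTGGT in 10.99, 8.97 and 12.9%. Across all 21041 windows the shares were 56.6% for GGGCGG, 27.6% for TGACG, 21.3% for CCGGAA, 3.63% for GCATGCGC, 8.22% for CACGTG, 1.49% for TCTCGCGA, 9.54% for TATAAA, 6.09% for TGANTCA and 11.2% for TGTGGT.

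The CCAAT share followed hotspot width only up to the threshold. Over all starts inside overlapping hotspots it was 29.2% (26.1 to 32.5%) where the narrower hotspot was under 200 bp, 37.2% at 200 to 299 bp, 48.2% at 300 to 399 bp and 54.9% (51.9 to 57.9%) at 400 to 499 bp. At 500 to 599, 600 to 799 and at least 800 bp it was 52.2, 51.1 and 50.7%, with overlapping intervals. Promoters with CCAAT were therefore as frequent just below the minimum width as above it.

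**Figure D4:**
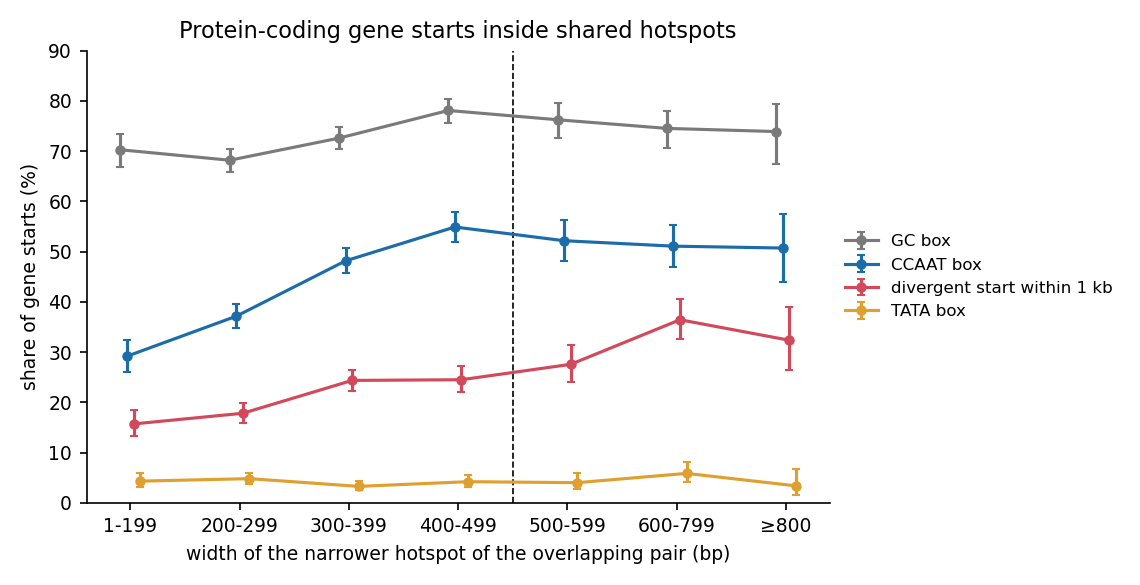
Share of protein-coding gene starts (%, with 95% Wilson intervals) with a GC box, a CCAAT box, a divergent start or a TATA box, by the width of the narrower of the 2 overlapping hotspots; the dashed line marks 500 bp. The CCAAT share climbs from 29.2 to 54.9% below the line and is level above it, the divergent share reaches 36.4% at 600 to 799 bp and is 32.4% beyond, and the TATA share stays low throughout.

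Neighbours of either line were about as frequent around wide shared hotspots as around others. Saos-2 neighbours, with shared and unshared ones counted together, were less frequent than around the other wide hotspots. Within 10 kb, 50.2% (48.1 to 52.3%) of the wide shared hotspots had another Saos-2 hotspot and 48.8% (46.7 to 50.9%) another U2OS hotspot. A hotspot of either line stood near 63.9% (61.9 to 65.8%). The last share was 65.3% for wide Saos-2 hotspots with a narrower partner, 64.4% for those with none and 66.7% for narrow shared hotspots. Another Saos-2 hotspot stood near 57.5% (55.1 to 59.8%) of the wide ones with a narrower partner and 60.8% (57.2 to 64.2%) of those with none, and another U2OS hotspot near 47.5% (45.1 to 49.9%) and 38.4% (35.02 to 41.96%). Wide shared hotspots at gene starts had fewer neighbours, with a Saos-2 hotspot near 47.6% (44.8 to 50.5%) and a U2OS hotspot near 43.3% (40.5 to 46.1%), against 53.0% (49.96 to 55.96%) and 54.9% (51.9 to 57.8%) of those elsewhere. Of the 1726 Saos-2 neighbours, 59.4% (57.1 to 61.7%) were themselves shared with U2OS, below the 64.3% (63.6 to 65.1%) around narrow shared hotspots. The share was 48.8% (46.4 to 51.2%) around wide hotspots with a narrower partner and 36.4% (33.3 to 39.7%) around those of Saos-2 alone. Among U2OS neighbours the order of these wide classes was reversed. Of the 1686 around wide shared hotspots, 52.4% (49.99 to 54.7%) were shared with Saos-2. The share was 68.7% (66.0 to 71.3%) around wide Saos-2 hotspots with a narrower partner and 73.5% (69.1 to 77.5%) around those with none. The order thus depends on which list supplies the neighbours. The wide shared hotspots were spread singly: 46 lay within 10 kb of the one before, and the median gap was 529 kb.

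Seen from the genes, 1446 of 19126 autosomal protein-coding genes (7.56%, 7.19 to 7.94%) had a wide shared hotspot within 1 kb of the start. Overlapping hotspots of any width stood at 8342 starts, so 17.3% of the promoters open in both lines were wide in both. The median width of the narrower hotspot at those 8342 starts was 325 bp. The gene lists below are read against these 3 values. The lists were chosen with earlier results of these lines in view, and a count near 17.3% says nothing particular about a list.

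Genes of protein folding had the highest share among the 20 lists, 35.7% (20.7 to 54.2%). Of 28 heat shock and chaperone genes, 26 had overlapping hotspots of both lines at the start and 10 of them (38.5%) were wide in both, with a median narrower width of 435.5 bp. HSP90B1, the chaperone of the endoplasmic reticulum, had a Saos-2 hotspot of 813 bp and a U2OS hotspot of 852 bp with a significance of 32.1 and 31.9. HSPA9, the mitochondrial HSP70, had 1145 and 762 bp with 34.8 and 29.8. The chaperonin subunits TCP1 and CCT3 had 508 and 525 bp and 827 and 782 bp. HSPA8, the constitutive HSP70, had 670 and 727 bp. HSPD1 and HSPE1 are counted separately but share 1 hotspot. HSPA1B has near-identical copies, so its reads may be shared with them.

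Genes of RNA processing came next, with 27.03%. Of 37 genes of SR proteins and hnRNPs, which bind pre-mRNA and steer splicing, 10 of 30 open in both lines were wide in both, with a median narrower width of 402.5 bp. HNRNPD had hotspots of 673 and 730 bp with a significance of 33.9 and 69.5, HNRNPUL1 of 772 and 805 bp, SRSF7 of 591 and 637 bp and HNRNPC of 647 and 759 bp. Of 53 genes of translation initiation factors, 9 of 43 open in both were wide in both. EIF5B had 674 and 690 bp with 33.3 and 37.3, and EIF2AK3, the stress kinase PERK, had 975 and 1000 bp with 50.05 and 26.8. Aminoacyl-tRNA synthetase genes were open in both lines at all 35 starts, and 5 were wide in both (14.3%), near the background, with a median narrower width of 360 bp. They were led by PARS2 with 693 and 724 bp and TARS1 with 856 and 793 bp.

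Ribosomal protein and proteasome promoters were mostly open in both lines. Of 75 genes of cytosolic ribosomal proteins, 68 had overlapping hotspots and 6 were wide in both (8.82% of the 68), with a median narrower width of 306 bp. RPS19 had 830 and 841 bp with a significance of 25.5 and 20.6. RPL5 had 563 and 610 bp, matched at an end of the gene because its start is not listed. Of 33 proteasome genes 29 were open in both and 3 wide in both, with a median narrower width of 387 bp. PSMC5 had 846 and 780 bp and PSMD4 605 and 562 bp. Of 12 genes of RNA polymerase II subunits 9 were open in both and 0 wide in both. For nuclear genes of oxidative phosphorylation the numbers were 63 of 82 and 9, with ATP5PB, a subunit of ATP synthase, at 503 and 536 bp and a significance of 41.9 and 75.3. COX8A, a subunit of cytochrome c oxidase, had 520 and 523 bp.

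Cell cycle and signal-response genes had small counts. Among 29 genes of cyclins and their kinases, 24 were open in both lines and 5 wide in both. CCNT1, the cyclin of the elongation factor P-TEFb, had 539 and 608 bp with a significance of 38.6 and 54.1. CCNK had 692 and 723 bp. Among 30 immediate early and AP-1 genes, 19 were open in both and 3 wide in both, and the median narrower width was only 209 bp. SRF, the serum response factor, had 884 and 782 bp with a significance of 29.6 and 27.4, and JUN had 511 and 647 bp with 12.2 and 21.1. Of 30 cytoskeleton genes 23 were open in both and 4 wide in both, led by TUBG1, the gamma-tubulin gene, with 501 and 549 bp, and the beta-tubulin gene TUBB4B with 661 and 584 bp. Of 467 genes with a ZNF symbol, 316 were open in both and 42 wide in both (13.3%), led by ZNF473 with 1101 and 865 bp and a significance of 60.4 and 65.9. ZNF235 had 573 and 509 bp with 51.4 and 57.8.

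Histone genes had more hotspots in the Saos-2 list, while genes as a whole had more in the U2OS list. Of 68 replication-dependent histone genes, 43 had a hotspot at the start in Saos-2 and 25 in U2OS, against 9343 and 10384 of all 19126 genes. Of the 24 histone genes open in both, 6 were wide in both. These 6 genes share 4 hotspots. A hotspot of 1101 and 1575 bp, with a significance of 33.4 and 20.8, overlapped H2AC21 and lay within 1 kb of the H2AC20 start. The hotspot of 744 and 582 bp at H2BC21 also overlapped H2AC20. Histone genes are near-identical copies, so reads may not be unique to one of them. No gene of the osteoblast and mesenchymal list was wide in both lines (0 of 15), and the median narrower width at the 7 open in both was 132 bp. The epithelial, blood, neural and liver lists and 389 olfactory receptor genes also had 0, with only 0, 2, 1, 1 and 2 genes open in both lines. At a background of 17.3%, zeros over so few open promoters say nothing particular about these lists.

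**Figure D5:**
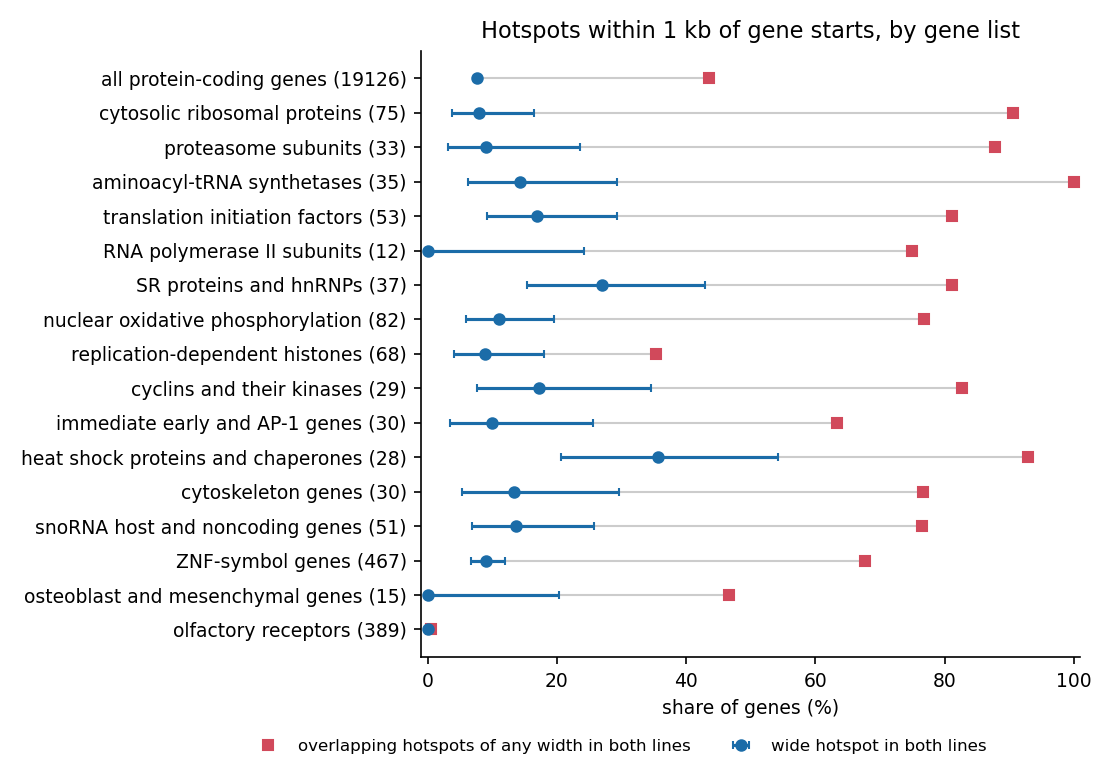
Share of the genes of each list (%, number of genes in brackets) with a wide hotspot of both lines within 1 kb of the start (blue, with 95% Wilson intervals) and with overlapping hotspots of any width (red). The shares of any width reach 100% for aminoacyl-tRNA synthetases, while the wide shares range from 0% to 35.7% for heat shock proteins and chaperones.

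Some wide shared hotspots lay near genes of small RNAs. Among 151 snRNA genes, which encode the RNA of spliceosomes, 8 (5.30%) had one within 1 kb, against 7.56% of protein-coding genes. Of the 8, 7 were not at a protein-coding start. Saos-2 was the wider in 7 of the 8, against 948 of all 2230 pairs. RNU5E-1 had 1928 bp for Saos-2 against 1101 bp for U2OS with a significance of 49.6 and 22.6, RNU1-1 had 1765 and 524 bp with 44.9 and 12.4, and RNU11 had 1325 and 703 bp with 29.2 and 13.1. The exception was LOC124904147, with 565 and 725 bp. RNU1 and RNU5 genes have near-identical copies elsewhere, so their reads may not be unique to one gene. At 17 sites near 19 of 439 tRNA genes (4.33%), Saos-2 was the wider in 7 and U2OS in 10. Of the 19 tRNA genes, 9 were not at a protein-coding start. TRE-TTC2-1 on chromosome 13, 20.5 kb from a protein-coding gene, had nearly equal widths of 1161 and 1151 bp. Of 1793 miRNA genes, 19 (1.06%) had one within 1 kb, and all of these but MIRLET7I lay at protein-coding starts. Among genes open in both lines, 36.4% of 22 snRNA, 18.3% of 104 tRNA and 11.4% of 166 miRNA genes had one. The tRNA and miRNA shares are near or below the 17.3% of protein-coding genes. GAS5, a lncRNA that hosts snoRNAs, had 704 and 1242 bp with a significance of 41.8 and 45.5. RPPH1, the RNA of RNase P, shares the PARP2 hotspot of 1061 and 844 bp shown above.

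The chromosomes differed in how many wide shared hotspots they held per gene. Chromosome 14 had 95, or 15.7 per 100 protein-coding genes, chromosome 7 had 15.2 and chromosome 2 had 13.9. Chromosome 15 had 50, or 8.10 per 100, chromosome 16 had 8.20 and chromosome 11 had 8.92. The share of the wide Saos-2 hotspots that were wide in U2OS was highest on chromosome 22, at 48 of 74 (64.9%, 53.5 to 74.8%), and lowest on chromosome 13, at 33 of 123 (26.8%, 19.8 to 35.3%), and chromosome 21, at 22 of 73 (30.1%, 20.8 to 41.4%). With the wide U2OS hotspots as the denominator the order changed, to 28.7% on chromosome 22, 40.7% on chromosome 13 and 47.8% on chromosome 21, so it depends on how many wide hotspots each list held there. Chromosome 19 had the highest share at gene starts, 77.9% of 136, against 52.5% of the wide shared hotspots of all chromosomes. Hotspots of any width are not given per chromosome here. Whether these differences are particular to the wide shared hotspots was therefore not tested.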

How the data were processed

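Hotspots of 1 DNase-seq library per line were used, on hg38. Per the submitters' processing notes, Trimmomatic 0.38 and BWA 0.7.15 were used; the hotspot caller and its filters are not given in the sources used here. The authors deposited, for each hotspot, a −log10 significance between 1.30 and 100 and a score, which is the same value times 10 in whole numbers and was not used further. The lowest value is the −log10 of 0.05. Read counts were not given, so depth is unknown. A deeper library yields wider and more significant hotspots, and its part in the shared widths was not tested.

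Intervals were overlapped with Python 3.11.15, numpy 2.4.6, pandas 2.3.3 and scipy 1.17.1, after being tested on simulated data. Genes and promoter windows came from RefSeq tables on GRCh38.p14. A protein-coding start was listed for 15101 of 19126 autosomal genes (79.0%), and for none on chromosome 8; both gene ends stood in for the others. No genome was used, so motifs (16, both strands) were searched in promoter windows only. Members, lists and motifs were chosen with earlier results of these data known.

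Sites named were the 10 of highest lower significance, the 10 widest overlaps, the 5 at each end of the width ratio, the 5 farthest from genes, 3 beside the threshold on each side, the 5 with most gene starts, 3 chromosomes at each end, and 2 to 6 genes per list by lower significance. One of the 10 widest overlaps is not reported here. Sequences were 1 promoter per motif, each gene shown once. Genes with several internal sites, small RNA genes, marker genes and chromosomes 13, 19, 21 and 22 were named after their values were seen, as was the GC comparison. Alternatives were the width minimum, the overlap, merging, chains, lists of equal length, the start window, the gene set and the window rule.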

Additional observations from a re-analysis of the deposited data

Results flagged for a closer look

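Chromosome X was outside the rule. It held 120 Saos-2 hotspots of at least 500 bp outside chains, and 52 of them overlapped a U2OS hotspot of at least 500 bp. The result was marked because a signal lies in data that the description does not use, with no control samples to compare it with.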

How the results depend on the processing

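Of 54 values recomputed under an alternative, 35 stayed within 1.5-fold (the number of sites) or inside the 95% interval (shares), and 19 moved. The number of wide shared hotspots was 4733 with a minimum of 400 bp and 510 with 700 bp. The share at a gene start was 48.3 and 61.2% in these settings, 48.0% with the start inside the hotspot and 58.5% for all annotated genes. The share of protein-coding genes was 14.2 and 2.12% with the 2 minimum widths, 9.51% with hotspots less than 150 bp apart merged, 6.82% with the start inside and 3.404% for all annotated genes. The share far from genes was 2.47% for all annotated genes. The share with a neighbour was 59.4% with 700 bp, 58.4% after merging, 59.7% with lists of equal length and 95.8% within 50 kb. With listed starts only and without chromosome 8, chosen after seeing the data, the shares at a start and of genes were 48.1 and 8.33%. CpG-rich windows moved in none of their 4 alternatives. The CCAAT share moved only when partly covered windows were counted, to 49.6%. No paired analysis was possible because each line was represented by 1 library, and no replicate could be left out. Read depth is unknown, so what it limits could not be given per site.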

Other observations

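Of the 10 pairs of highest lower significance, 3 lay within 1.52 Mb of chromosome 17, between 59154805 and 60678183: the promoters of SKA2 and PRR11, of PTRH2 and VMP1, and of BCAS3. The span held 9 wide shared hotspots in all, with a median lower significance of 18.9, against 14.4 over all pairs. The 3 pairs that mark out the span are among the 9, so the higher median is partly fixed by the choice and is only a description. The densest stretch of 2 Mb was on chromosome 19, from 48 to 50 Mb, with 17 wide shared hotspots. Without the rule on chains the set would have held 4 more sites, 2232 in all. These stretches were picked after their values were seen.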
